A study of Rattus norvegicus with 31 samples.

Results

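The relative use of RefSeq transcripts in the left ventricle was compared between the HXB and BXH families of recombinant inbred rats. The comparison used all 21 HXB and BXH libraries of the 31 libraries in the series, with 12 HXB strains (substrain Ipcv) and 9 BXH strains (substrain Cub), 1 library per strain. All rats were untreated, the strain was the replicate, and ages were not given in the labels. Every strain carries segments of 2 progenitors, the spontaneously hypertensive SHR/OlaIpcv and the Brown Norway congenic BN-Lx/Cub, fixed by inbreeding after crosses in opposite directions. Sequencing batch 2 held 3 HXB strains (HXB13, HXB25 and HXB3) and 3 BXH strains (BXH10, BXH5 and BXH6), and batch 3 held 9 HXB and 6 BXH strains. The share of a transcript was its unlogged value divided by the sum over the transcripts of the same gene, so that a shift common to the whole gene cancels. Transcripts were kept where the gene had at least 2 of them and their sum exceeded 8 on the log2 scale, which left 15090 transcripts of 4726 genes, of 39547 RefSeq transcripts in the table.

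A gene makes different transcripts through alternative start sites, splicing and polyadenylation. In the heart, splicing regulators such as Rbm20 set the isoforms of titin and of calcium handling and ion channel genes, and isoform use changes during development and in disease. RefSeq accessions that begin with NM or NR mark curated transcripts, and those with XM or XR mark transcripts predicted from the genome. The values were not compared per length here, so a share is a part of the gene's deposited output and not of its molecules. Transcripts that differ in few exons share most reads. Their separation rests on the quantification by the authors, and the library kit keeps the strand.

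The libraries of the families differed in other measures as well. The mean level of the 69 spike-in RNAs was 6.73 ± 0.145 (SD, n = 12) log2 in HXB and 7.35 ± 0.413 (SD, n = 9) in BXH, a batch-adjusted difference of -0.63 (exact permutation test within batches, two-sided p = 7.99e-05, adjusted over 5 library measures 0.00035). In batch 3 the level ran from 6.52 to 6.95 in 9 HXB libraries and from 7.24 to 7.99 in 6 BXH libraries, with no overlap. In batch 2 it ran from 6.63 to 6.89 in HXB, and the BXH libraries BXH5 and BXH6 lay in that range at 6.70 and 6.76 while BXH10 was at 7.46. The first component of the shares, centred within batch, held 14.1% of their variance and ran from -43.2 to 4.40 in BXH and from -10.9 to 33.2 in HXB. HXB25 stood apart from all other libraries on the second component (8.82% of the variance), at -72.3 where the others ran from -8.34 to 16.9. In batch 3, family and spike-in level cannot be told apart.

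**Figure D1:**
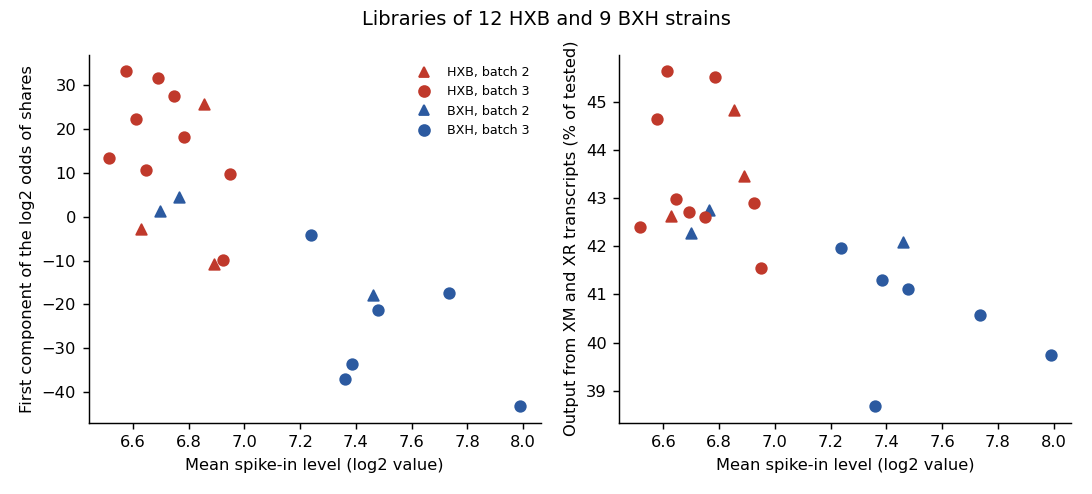
Each point is 1 library of an HXB (red) or BXH (blue) strain, as a triangle in batch 2 and a circle in batch 3, plotted by its mean spike-in level (log2 value) against the first component of the log2 odds of shares (left, no unit) and the percent of tested output from XM and XR transcripts (right). In batch 3 the families do not overlap in spike-in level, with HXB at or below 6.95 and BXH at or above 7.24.

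Isoform shares differed between the families in a small part of the transcripts. Of 15090 transcripts, 978 (6.48%) passed an adjusted p of 0.05 in limma on the log2 odds of the share with batch as a covariate, 493 with a higher (3.27%) and 485 with a lower share (3.21%) in HXB. They belonged to 648 of 4726 genes (13.7%), and 297 of these genes had called transcripts in both directions, 165 of them with at least 3 transcripts. The median size of the difference was 5.58 percentage points among called transcripts and 1.20 points among all tested. Differences of at least 5 points were found in 549 called transcripts (3.64%), of at least 10 points in 122 and of at least 20 points in 9. Ranges without overlap between all HXB and all BXH strains occurred in 8 transcripts (0.053%) of 6 genes.

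The number of calls moved with the libraries. Within batch 3 alone 1329 transcripts were called (8.81%), and within batch 2 alone 1 transcript (0.00663%), from Tex10, with 782 at an unadjusted p under 0.05. With the spike-in level as a covariate 1 transcript was called (0.00663%), from Aldh1a1, and with the score along the difference between 2 SHR libraries 23 transcripts of 20 genes (0.152%). Among the 978 called transcripts, 972 kept the sign of their difference with the spike-in covariate. The median ratio of their log2 odds with the covariate to those without was 0.59 for the spike-in level and 0.84 for the SHR score. These transcripts were chosen by the fit without either covariate. Without HXB25 the count of calls was 1268, and without BXH12 or BXH9 it was 443 or 445. The rise was not particular to HXB25, with 1229 calls without HXB5, 1152 without HXB3, 1117 without BXH6 and 1095 without BXH5. The sign of the difference was the same within both batches for 948 of the 978 called transcripts (96.9%), against 55.9% of all tested, although the calls themselves used both batches. Among called transcripts the median size of the difference was 0.35 log2 odds within batch 2 and 0.66 within batch 3, and an unadjusted p under 0.05 within batch 2 was found for 137 of them (14.0%), against 5.18% of all tested. The libraries of batch 2 were part of the fit that made the calls, so a higher share among called transcripts was to be expected from their choice. The part of the spike-in level in the calls was not tested beyond these values.

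**Figure D2:**
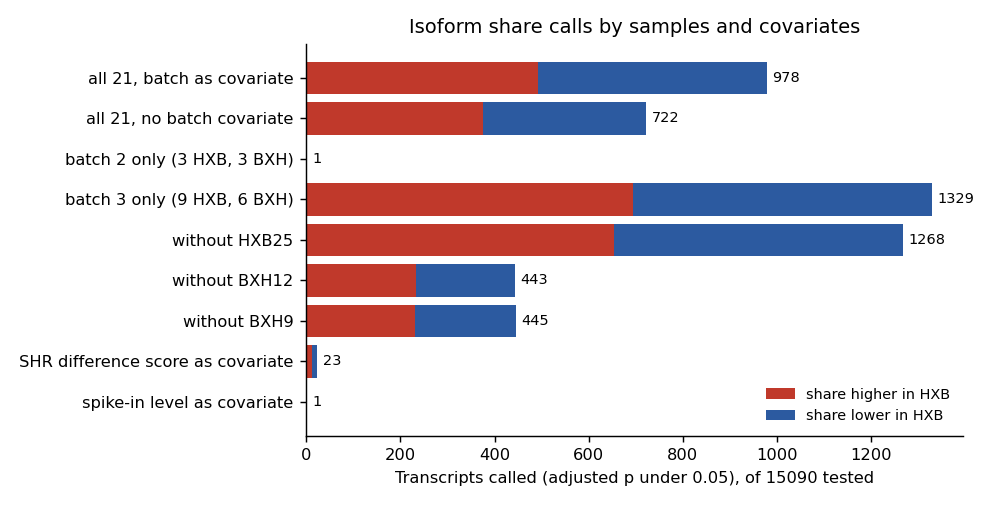
Number of transcripts called at an adjusted p under 0.05 of 15090 tested (bars, with the total beside each), split into shares higher (red) and lower (blue) in HXB, for all 21 libraries and for other samples or covariates. The count was 978 with all libraries, 1329 in batch 3, 1 in batch 2 and 1 with the spike-in level as a covariate.

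Called NM transcripts were mostly lower in HXB and called XM transcripts mostly higher, whereas called XR transcripts were mostly lower (9 higher and 18 lower of 429 tested). Of 4431 NM transcripts 367 were called, 74 higher and 293 lower in HXB, and of 10205 XM transcripts 582 were called, 409 higher and 173 lower. The shares of a gene have a fixed sum, so a lower NM share comes with higher shares of its other transcripts. The NM and XM results are therefore not independent of each other. The median difference over all tested transcripts was -0.06 log2 odds for NM and 0.04 for XM. In batch 3 these medians were -0.09 and 0.07, whereas in batch 2 both were near 0 (-0.01 and -0.02), and with the spike-in level as a covariate they were -0.02 and 0.01. The called transcripts were also counted in genes whose matched transcripts add up to the deposited gene value within 0.1 log2. There 197 of 2385 NM transcripts were called, 42 higher and 155 lower in HXB. Of 3718 XM transcripts in these genes 236 were called, 186 higher and 50 lower. Over whole libraries, XM and XR transcripts made up 43.5% ± 1.33 (SD, n = 12) of the tested output in HXB and 41.2% ± 1.31 (SD, n = 9) in BXH, a batch-adjusted difference of 2.40 points (exact permutation test within batches, two-sided p = 0.00014, adjusted 0.00035). The difference was 1.26 points in batch 2 and 2.87 points in batch 3, where the spike-in levels of the families do not overlap. The median share of the leading transcript of a gene was 73.3% ± 0.425 (SD, n = 12) in HXB and 73.4% ± 0.533 (SD, n = 9) in BXH (exact permutation p = 0.841).

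The SHR progenitor, with 2 libraries of 1 animal number in the same table, lay mostly with HXB. Both SHR libraries fell on the HXB side of the midpoint between the family means for 789 of 978 called transcripts (80.7%) and on the BXH side for 37 (3.78%). Over all tested transcripts these shares were 45.4% and 18.1%. Both SHR libraries lay past the HXB mean for 571 called transcripts (58.4%) and past the BXH mean for 7. The count was alike for transcripts higher (394 of 493) and lower (395 of 485) in HXB. The spike-in levels of the SHR libraries were 7.23 and 7.04, above those of every HXB library. They were below those of all 6 BXH libraries in batch 3 (7.24 to 7.99). In batch 2 BXH5 and BXH6 were lower than SHR, at 6.70 and 6.76, and BXH10 was higher, at 7.46. The part of the spike-in level in the position of SHR was not tested. These 2 libraries carry the same animal number, so the comparison has no replicate of the strain and no test. BN-Lx was not used here.

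Aldh1a1, the retinaldehyde dehydrogenase that makes retinoic acid (chr1:218000470-218152962 in rn7), gave the smallest p. The share of its predicted transcript XM_039093931.1 was lowest at 1.87%, median 3.08% and highest at 4.84% in HXB, and 0.519%, 0.728% and 1.77% in BXH, so that the families did not overlap. The batch-adjusted difference was 2.24 ± 0.312 points (SE) or 1.96 ± 0.23 log2 odds (adjusted p = 0.000366), and it was 1.95 within batch 2 and 1.96 within batch 3. It was called with the spike-in covariate (adjusted p = 0.0461) and with the SHR score (adjusted p = 0.00211). The 2 SHR libraries with the same animal number held 3.54% and 0.639%, a distance larger than that between the family means. The curated transcript NM_022407.3 held about the same share in both families, 90.2% ± 2.68 (SD, n = 12) in HXB and 89.9% ± 1.9 (SD, n = 9) in BXH (adjusted p = 0.778). The gene as a whole differed by -0.09 log2 (adjusted p = 0.358).

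Palld, which encodes the actin-bundling protein palladin, was the other gene of the 12 with the smallest p whose ranges did not overlap. XM_039094916.1 ran from 13.9% to 26.4% with a median of 22.3% in HXB and from 27.2% to 49.7% with a median of 34.6% in BXH. The difference was -14.2 ± 2.04 points (adjusted p = 0.00123), with -1.08 log2 odds in batch 2 and -1.04 in batch 3. The SHR libraries, at 16% and 19.6%, lay in the HXB range. The leading transcript XM_039094914.1 held 61.9% ± 6.08 in HXB and 53.6% ± 14.2 in BXH (adjusted p = 0.203), and the level of the gene differed by -0.01 log2 (adjusted p = 0.903).

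Pcgf5, a subunit of Polycomb repressive complex 1 (chr1:234063854-234180242), had its curated transcript NM_001129882.1 between 31.4% and 43.5% (median 39.1%) in HXB and between 43.1% and 55.9% (median 52.4%) in BXH. The difference was -12.2 ± 1.78 points (adjusted p = 0.00499), and the predicted XM_006231311.4 was higher in HXB by 17.7 points (adjusted p = 0.0133). SHR libraries stood at 31.6% and 31.3%, at the lower end of HXB. Ubn2, a ubinuclein of the histone chaperone complex that deposits histone H3.3, had NM_001134553.1 at 44.5% ± 5.54 in HXB and 68.6% ± 12.9 in BXH (adjusted p = 0.00676). Aff4, the scaffold of the super elongation complex, had XM_006246263.4 at 37.1% ± 9.23 in HXB and 57.6% ± 15.4 in BXH (adjusted p = 0.0143), but its 2 SHR libraries held 53.6% and 24.5%. All of these 3 genes were higher at the gene level in HXB, by 0.29, 0.24 and 0.32 log2.

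Nin, which encodes the microtubule anchoring protein ninein, had the largest difference in points: XM_008764705.3 ran from 7.31% to 54.7% (median 42.2%) in HXB and from 6.61% to 20.9% (median 12.7%) in BXH, with a difference of 26.9 ± 4.17 points (adjusted p = 0.00676). All HXB strains but the lowest lay above the BXH range, and the differences within batches 2 and 3 were 2.11 and 2.17 log2 odds. The matched transcripts of Nin add up to 61.3% of the gene value. Tchp, the keratin-binding trichoplein, had XM_006249451.3 at 61.7% ± 10.6 in HXB and 82.7% ± 6.29 in BXH (adjusted p = 0.00676, and 0.0193 with the SHR score). Ap1ar, a regulator of the clathrin adaptor AP-1, had XM_006233291.4 at 49.6% ± 9.21 in HXB and 68.1% ± 7.91 in BXH (adjusted p = 0.00531), while its SHR libraries held 66.4% and 16.3%, a wider distance than that between the families. Apbb2, an adaptor that binds the amyloid precursor protein, differed by -26.0 ± 5.94 points in XM_039092527.1 (adjusted p = 0.0185), and its matched transcripts add up to 19.1% of the deposited gene value.

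The rest of the 12 genes with the smallest p covered several functions. St3gal6, a sialyltransferase, had NM_207602.2 higher in HXB, at 36.4% ± 6.12 against 21.6% ± 6.34 (adjusted p = 0.00531). Mtr, methionine synthase, had NM_030864.2 lower, at 29.4% ± 4.29 against 40.4% ± 4.96 (adjusted p = 0.00676). Rsbn1 had XM_039102412.1 at 2.86% ± 0.72 against 6.54% ± 1.96 (adjusted p = 0.00504). In Zfp386, Tcaim and Ablim1 the matched transcripts add up to only 28.5%, 22.4% and 4.79% of the gene value, so their shares cover a part of the gene. The non-coding XR_005505444.1 of Zfp386 held 1.56% ± 0.341 in HXB and 3.38% ± 0.878 in BXH. Tcaim, a mitochondrial protein, had XM_017595773.2 at 28.8% ± 6.73 and 15.6% ± 5.53, and Ablim1, an actin-binding LIM protein, had XM_039110316.1 at 2.73% ± 1.51 and 11.1% ± 6.53 (adjusted p = 0.00123, 0.00504 and 0.00595). All of the first 9 genes of the 12, up to Ablim1, were also called with the SHR score as a covariate, and only Aldh1a1 with the spike-in level.

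**Figure D3:**
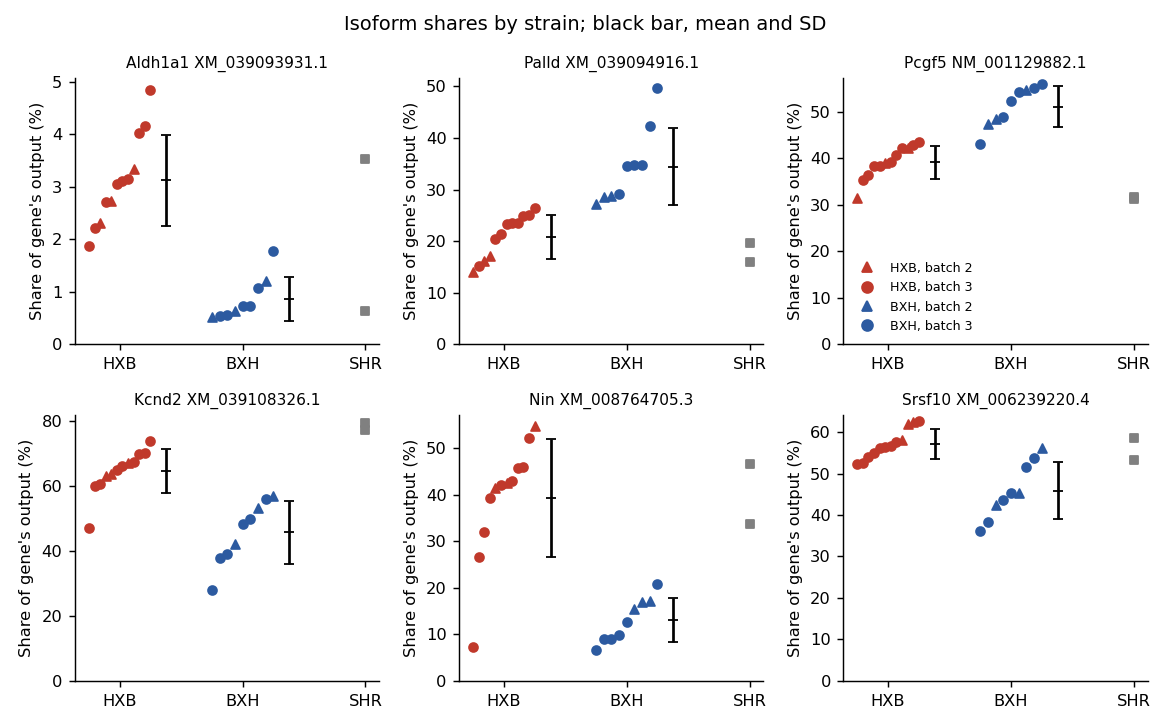
Share of the gene's output (%) of 1 transcript in each of 6 genes, by strain for HXB (red, n = 12) and BXH (blue, n = 9), with triangles for batch 2 and circles for batch 3, and for the 2 SHR libraries (grey squares). Black bars are the mean and SD. Aldh1a1 and Palld show no overlap between the families, and the SHR libraries of Aldh1a1 lie apart at 3.54% and 0.639%.

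The other 4 genes without overlap were found after their values were seen. Hspa4, a chaperone of the Hsp110 family, had NM_153629.1 between 65.1% and 71.6% in HXB and between 55.0% and 64.3% in BXH (adjusted p = 0.00676). Niban1 had XM_039091055.1 between 55.4% and 60.2% in HXB and between 47.8% and 55.0% in BXH (adjusted p = 0.0115). Smc5, of the SMC5/6 genome maintenance complex, had XM_039108980.1 at 8.12% ± 2.57 in HXB and 14.4% ± 2.07 in BXH (adjusted p = 0.012). Setdb1, a histone H3 lysine methyltransferase, had XM_006232913.3 at 5.75% ± 1.75 in HXB and 9.64% ± 1.94 in BXH (adjusted p = 0.016). None of these 4 was called with either covariate.

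Calcium handling and ion channel genes had calls in 8 of 23 tested genes of the list (34.8%), against 13.7% of genes over all tested. Of their 90 transcripts 12 (13.3%) were called, against 6.48% over all tested, 7 higher and 5 lower in HXB. The median size of the difference over the list was 0.74 points, against 1.20 over all transcripts. Kcnd2, the Kv4.2 subunit of the transient outward potassium current (chr4:49775146-50278861), showed the largest: XM_039108326.1 ran from 47.2% to 74.1% (median 65.6%) in HXB and from 28.1% to 57.1% (median 48.3%) in BXH, and the curated NM_031730.2 held the remainder. The difference was 19.2 ± 3.46 points (adjusted p = 0.00765), with 0.82 log2 odds in batch 2 and 1.3 in batch 3, and both SHR libraries lay above all strains, at 77.2% and 79.3%. The gene was also 0.56 log2 higher in HXB (adjusted p = 0.000821).

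Within the same list Slc8a1, the cardiac sodium-calcium exchanger, had XM_039111889.1 at 16.5% ± 2.64 in HXB and 10.1% ± 2.76 in BXH (adjusted p = 0.0107) and XM_039111888.1 at 21.3% ± 2.55 and 28.2% ± 5.6 (adjusted p = 0.0224), and the SHR libraries held 23.3% and 23.2% of the former. Its leading NM_019268.3 was at 57.8% ± 1.39 and 57.3% ± 4.82 (adjusted p = 0.90). Atp2a2, the SERCA2 calcium pump, had the non-coding NR_027839.1 at 1.29% ± 0.174 in HXB and 0.828% ± 0.208 in BXH (adjusted p = 0.00765), while NM_001110139.2 held 97.0% and 97.5%. Kcnj3, a subunit of the acetylcholine-activated potassium channel, had NM_031610.3 at 79.4% ± 2.72 and 73.6% ± 3.02 (adjusted p = 0.0157). Kcnq1, the slow delayed rectifier potassium channel, had XM_039092713.1 at 26.1% ± 3.41 and 20.3% ± 4.17 (adjusted p = 0.0265). Cacnb2, an L-type calcium channel subunit, had XM_006254303.4 at 24.6% ± 3.23 and 19.7% ± 2.04 (adjusted p = 0.0335). The calls in Camk2g and Kcnip2 concerned minor transcripts, with means of 1.79% against 3.26% and of 0.119% against 0.0763%. No call of the list was made with either covariate or within batch 2.

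Among sarcomere and Z-disc genes 6 of 26 tested genes (23.1%) were called, against 13.7% of genes over all tested. Of their 111 transcripts 10 (9.01%) were called, against 6.48% over all tested, 6 higher and 4 lower in HXB. The list median was 0.57 points. Tnni3, cardiac troponin I, had XM_039103599.1 at 0.884% ± 0.19 in HXB and 0.596% ± 0.141 in BXH (adjusted p = 0.0165), the rest being NM_017144.2. Fhod3, a formin of the sarcomere, had NM_001271332.2 at 55.8% ± 4.37 and 64.0% ± 5.65 (adjusted p = 0.0178), with -0.20 log2 odds in batch 2 and -0.66 in batch 3. The matched transcripts of Fhod3 add up to 49.5% of the gene value. Synpo2l, a Z-disc protein, had NM_001305139.1 at 11.6% ± 2.69 and 7.53% ± 2.53 (adjusted p = 0.0331), and Pdlim7, a PDZ and LIM domain protein, had XM_039095429.1 at 8.21% ± 1.81 and 5.70% ± 1.5 (adjusted p = 0.038). The myosin heavy chains Myh6 and Myh7 are near-identical neighbours, so their reads can be split between them. XM_039093219.1 of Myh6 held 69.0% ± 2.61 and 73.4% ± 2.49 (adjusted p = 0.0344) and XM_006251951.3 of Myh7 52.4% ± 2.20 and 57.0% ± 3.83 (adjusted p = 0.0346), and within batch 2 their differences were -0.02 and -0.05 log2 odds.

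Of the targets of the splicing factor RBM20 9 of 22 tested genes (40.9%) were called, against 13.7% of genes over all tested. Of their 125 transcripts 13 (10.4%) were called, against 6.48% over all tested, 6 higher and 7 lower in HXB. These genes had a median of 4.5 transcripts, against 3 over all genes, and the median difference was 0.72 points. Dst, the cytoskeletal linker dystonin, had XM_039083558.1 at 33.6% ± 2.94 in HXB and 27.8% ± 3.39 in BXH (adjusted p = 0.0151). Mef2a, a myocyte enhancer factor, had XM_039080843.1 at 37.7% ± 7.86 and 26.1% ± 7.49 (adjusted p = 0.0307). Ank3, ankyrin-G, had XM_039098850.1 at 16.5% ± 2.05 and 24.7% ± 7.80 (adjusted p = 0.0225), with -0.15 log2 odds in batch 2 and -0.94 in batch 3. Enah, an actin regulator, had XM_039090933.1 at 59.9% ± 4.48 and 52.7% ± 5.15 (adjusted p = 0.0431), and Lmo7 had NM_001001515.1 at 40.2% ± 2.74 and 44.3% ± 2.71 (adjusted p = 0.0353). The matched transcripts of Ank3 and Enah add up to 39.8% and 57.1% of the gene value. In Rtn4 the called XM_017599393.2 held 0.725% and 1.34%. The other called members were Fhod3, Camk2g and Kcnip2.

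Of the splicing regulators themselves 7 of 41 tested genes (17.1%) were called, against 13.7% of genes over all tested. Of their 164 transcripts 10 (6.10%) were called, 4 higher and 6 lower, close to the 6.48% over all tested. Srsf10 had XM_006239220.4 between 52.2% and 62.7% (median 56.6%) in HXB and between 36.2% and 56.2% (median 45.2%) in BXH, a difference of 11.6 ± 2.17 points (adjusted p = 0.00799) with 0.75 and 0.65 log2 odds within the batches. Rbm20 (chr1:252661685-253055704) had XM_039080732.1 at 22.1% ± 1.93 and 27.2% ± 2.94 (adjusted p = 0.0105), and its curated NM_001107611.2 at 56.8% ± 3.61 and 54.9% ± 3.30 (adjusted p = 0.430). The level of Rbm20 differed by 0.01 log2 (adjusted p = 0.946). Hnrnph1 had NM_080896.2 at 85.5% ± 5.13 and 77.5% ± 3.26 (adjusted p = 0.0161) and was the call of this list that passed with the SHR score (adjusted p = 0.0437). Srsf7 had NM_001039035.2 at 43.2% ± 3.32 and 49.6% ± 4.26, Luc7l3 had XM_017597392.2 at 20.2% ± 3.70 and 28.7% ± 7.63, and Hnrnpl had NM_032619.2 at 55.3% ± 2.00 and 50.1% ± 4.32 (adjusted p = 0.018, 0.0307 and 0.0335). In Qki the called XM_039086927.1 held 1.40% and 0.821%.

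Cardiac transcription and hypertrophy signalling genes had 7 of 32 genes (21.9%) called, against 13.7% of genes over all tested. Of their 99 transcripts 8 (8.08%) were called, against 6.48% over all tested, 3 higher and 5 lower, with a list median of 2.21 points. Adra1a, the alpha-1A adrenergic receptor, had NM_017191.2 at 8.15% ± 2.43 in HXB and 12.1% ± 2.17 in BXH (adjusted p = 0.0189). Insr, the insulin receptor, had NM_017071.2 at 27.3% ± 4.71 and 36.0% ± 5.82 (adjusted p = 0.0303). Igf1, insulin-like growth factor 1, had NM_001082479.1 at 20.2% ± 2.1 and 24.7% ± 3.17 (adjusted p = 0.0368), with the SHR libraries at 14.5% and 14.9%, below every strain. Npr3, the natriuretic peptide clearance receptor, had NM_012868.1 at 18.1% ± 3.25 and 22.3% ± 2.43 (adjusted p = 0.0431). Erbb4, a neuregulin receptor, had XM_039084151.1 higher at 74.0% ± 6.03 against 63.6% ± 8.27 (adjusted p = 0.0434), and Mef2d, a myocyte enhancer factor, had XM_039103206.1 higher by 4.54 points (adjusted p = 0.0499). The other called gene of the list was Mef2a, described with the RBM20 targets.

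Energy metabolism genes had 5 of 35 genes (14.3%) called, near the 13.7% of genes over all tested. Of their 126 transcripts 10 (7.94%) were called, near the 6.48% over all tested, 5 in each direction, with a list median of 0.24 points. Esrrg, an estrogen-related receptor that drives oxidative genes, had NM_203336.2 between 42.4% and 51.2% in HXB and between 48.3% and 62.2% in BXH (adjusted p = 0.0081). Acsl1, the long-chain acyl-CoA synthetase of the heart, had NM_012820.2 at 15.4% ± 6.22 and 6.91% ± 4.51 (adjusted p = 0.0178), with 0.59 log2 odds in batch 2 and 1.9 in batch 3. Lpin1, a phosphatidate phosphatase, had XM_039112199.1 at 51.6% ± 3.73 and 58.9% ± 4.59 (adjusted p = 0.0214), with -0.49 and -0.43 log2 odds within the batches. The fatty acid receptors Ppara and Ppard had XM_006242152.4 and XM_006256167.4 higher by 4.23 and 1.25 points (adjusted p = 0.0262 and 0.0424), but within batch 2 the difference in Ppara was 0.07 log2 odds.

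In the extracellular matrix list 2 of 16 genes (12.5%) were called, against 13.7% of genes over all tested. Of its 59 transcripts 3 (5.08%) were called, against 6.48% over all tested, 2 higher and 1 lower, with a median of 0.98 points. Vegfa, the endothelial growth factor, had NM_001110335.1 at 17.7% ± 2.49 in HXB and 13.0% ± 1.88 in BXH (adjusted p = 0.0144). Several of its 12 transcripts carry identical values, such as NM_001287107.1 and NM_031836.3 at 31.1% each in HXB, and were not separated by the quantification. Vcan, the proteoglycan versican, had NM_053663.1 at 74.4% ± 2.63 and 80.1% ± 3.44 (adjusted p = 0.0154). Among autophagy, ubiquitin and chaperone genes 4 of 16 genes were called, a larger part than the 13.7% of genes over all tested. Of their 48 transcripts 6 (12.5%) were called, against 6.48% over all tested, 4 higher and 2 lower in HXB. The list median was 0.71 points. Lamp2, a lysosomal membrane protein that is lost in Danon cardiomyopathy, had NM_017068.3 at 31.2% ± 1.18 and 35.3% ± 2.55 and XM_006257486.4 at 66.1% ± 1.17 and 62.6% ± 2.38 (adjusted p = 0.0249 and 0.0412). Atg7, an enzyme of autophagosome formation, had XM_008763239.3 at 29.4% ± 5.65 and 20.8% ± 5.22 (adjusted p = 0.0351), but its difference was -0.02 log2 odds within batch 2 and 0.99 within batch 3. The ubiquitin protease Usp28 and the ligase Ube3a differed by 2.81 points in XM_039081445.1 and by -4.88 points in XM_006229313.4 (adjusted p = 0.0326 and 0.0405).

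**Figure D4:**
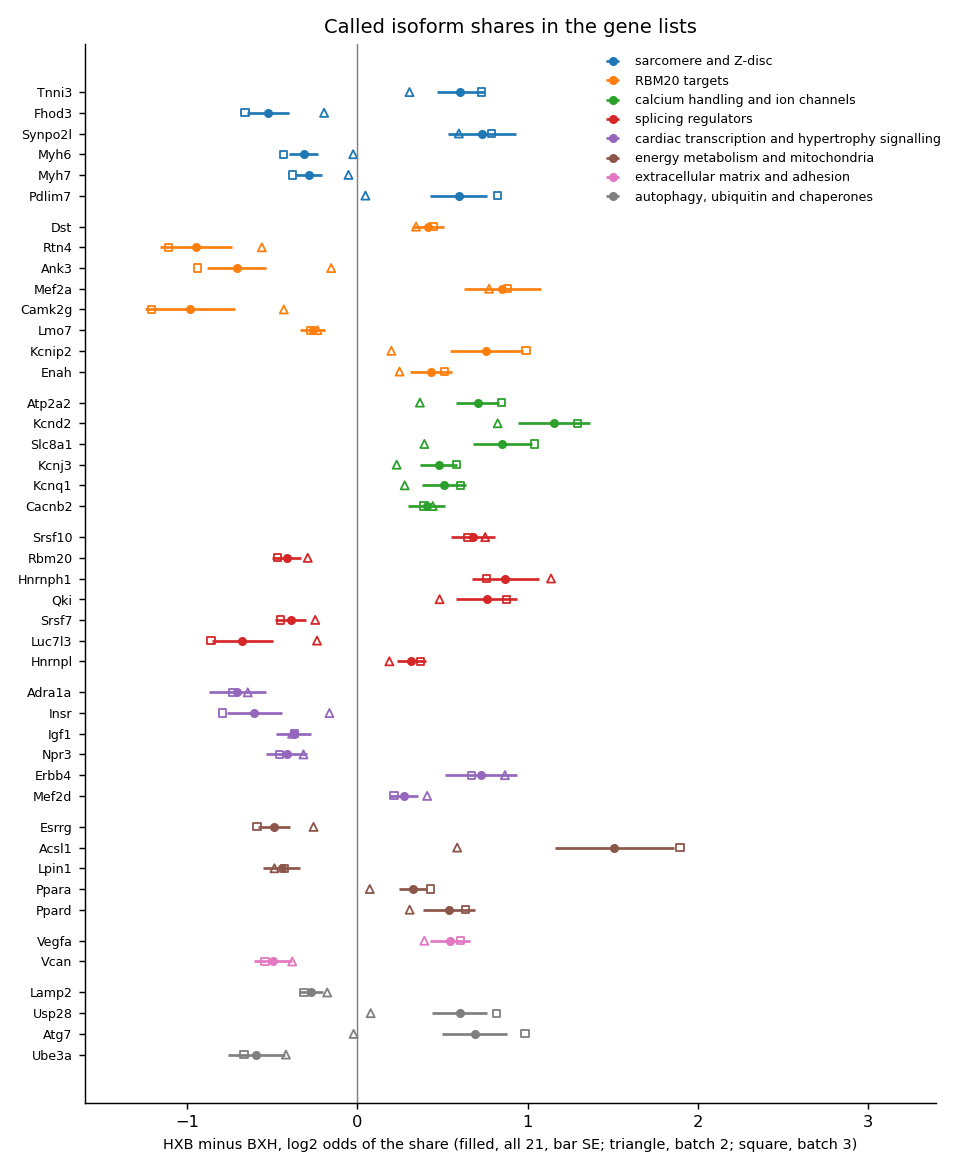
Difference between HXB and BXH in the log2 odds of the share for the called transcript with the smallest p of each called gene of 8 lists (filled points with SE bars, all 21 libraries), with the difference within batch 2 (open triangles) and within batch 3 (open squares). A gene in 2 lists is drawn once. Triangles of Myh6, Myh7, Pdlim7, Ppara, Usp28 and Atg7 lie near 0.

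Candidate genes of the SHR model and Y-linked genes gave no call in limma, against 13.7% of genes and 6.48% of transcripts over all tested. Both lists were too small to tell the absence of calls from that share. In the candidate list 29 transcripts of 10 of 18 genes were tested, with a median difference of 2.37 points. The smallest p belonged to Irf7, an interferon regulatory factor, whose XM_006230540.2 ran from 1.59% to 23.1% in HXB and from 8.54% to 34.6% in BXH (adjusted p = 0.116). Cd36, the fatty acid transporter that is defective in some SHR lines, had XM_039107196.1 at 2.27% ± 0.368 and 2.81% ± 0.438 (adjusted p = 0.128), and its leading XM_039107194.1 at 46.9% ± 2.40 and 47.2% ± 3.75 (adjusted p = 0.939). Echdc2 had NM_001106675.1 at 82.6% ± 9.43 and 84.9% ± 9.02 (adjusted p = 0.764). Of the Y-linked genes Kdm5d, a histone demethylase, had XM_008773689.3 at 97.3% ± 0.822 and 97.6% ± 0.706, and Ddx3y, an RNA helicase, had NM_001167665.2 at 63.8% ± 7.31 and 67.1% ± 3.87 (adjusted p = 0.772 and 0.416). The difference was -0.26 ± 0.364 points in Kdm5d and -3.70 ± 2.49 points in Ddx3y. Kdm5d turned positive within batch 2, with the spike-in covariate and with a pseudocount of 16. The transcripts of Ddx3y exceed the deposited gene value of that symbol by 7.11 log2, so the gene value is not theirs.

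The share differences were seen beside differences of whole genes. At the gene level 6940 of 19100 genes (36.3%) were called between the families, 3534 higher (18.5%) and 3406 lower (17.8%) in HXB. With the SHR score as a covariate 4118 genes were called, and with the spike-in level or within batch 2 none was in limma (2113 and 1561 at an unadjusted p under 0.05), so the marker calls given next hold only without these settings. Among genes with a called isoform the gene level was called for 365 of 637 (57.3%), and among tested genes without one for 51.9% of 4003. Markers of some cell types moved with the families. All 9 cardiomyocyte markers were measured, 2 higher and 3 lower in HXB, with a summed level between 22 and 22.2 log2 in HXB and between 21.8 and 22.2 in BXH. Macrophage markers were lower in HXB for 5 of 9 and mesothelial markers for 6 of 8, with summed levels of 13.2 to 13.8 against 13.6 to 14.0 and of 9.78 to 10.3 against 9.94 to 10.8, so that the ranges overlapped. Of the 11 endothelial markers 3 were higher and 3 lower, and of the 11 fibroblast markers 1 was higher and 1 lower. None of the 6 erythroid, 2 adipocyte or 5 neutrophil and mast cell markers measured was called in limma. Of 13 lymphocyte markers 2 were lower, of 10 pericyte and smooth muscle markers 2 were higher, and 1 Schwann cell marker of 8 was lower and 1 atrial marker of 7 higher in HXB. Their part in the isoform shares was not tested, and fewer cells of a type and less RNA per cell cannot be told apart in these libraries.

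Shares varied between strains about as much as between 2 libraries with 1 animal number, for which there was only 1 pair. The column suffixes of that SHR pair differ and could not be tied to a batch. For 11243 transcripts with a mean share between 5% and 95%, the median distance between the 2 SHR libraries was 3.27 points. The same median was 3.30 points over 90 pairs of strains in different batches (2.59 to 4.76) and 3.47 points over 120 pairs in the same batch. In batch 3 it was 2.97 points between 2 HXB strains, 3.29 points between 2 BXH strains and 3.77 points between an HXB and a BXH strain. The SHR libraries differed by more than the family means for 184 of the 978 called transcripts (18.8%), which were chosen for their family difference.

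A mixture of 1 to 3 normal components of equal variance was fitted to 11787 transcripts with a mean share of at least 5%. One mode was chosen for 9291 transcripts, 2 modes for 2084 and 3 modes for 412, so that 21.2% had more than 1. Calls between the families were made for 5.41% of transcripts with 2 or 3 modes and for 7.80% of those with 1. The transcripts with the largest gain from a second mode, named after their values were seen, included Vcl, Hax1, Camk2d and Hsd17b8. For NM_212529.1 of Hsd17b8, a mitochondrial dehydrogenase, 12 strains lay between 68.4% and 78.9% and 9 strains between 92.3% and 94.9%, with both families in each set, and the SHR libraries held 90.1% and 94.9%. For NM_001107248.1 of Vcl, the adhesion protein vinculin, HXB13, HXB31 and HXB5 held 99.5%, 99.6% and 99.5%, and all other strains lay between 93.7% and 97.4%. For NM_181627.2 of Hax1, an inhibitor of apoptosis, BXH13 held 16.4% where all other strains ran from 45.6% to 55.3%.

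Other wide shares moved between the SHR libraries as well. XM_017590612.2 of Camk2d, a calcium/calmodulin-dependent kinase, held 2.15% to 4.00% in BXH13, BXH6, HXB17 and HXB29 and 12.4% to 20.3% in the other strains, and the SHR libraries held 13.9% and 3.07%. Its matched transcripts add up to 17.6% of the gene value. The largest SD over strains belonged to Celsr1, Ypel3, Ankrd6, Zbtb22, Dcaf12 and Tet3, at 27.3, 25.9, 25.7, 25.2, 23.9 and 23.3 points within batches. In the same order their matched transcripts add up to 29.8%, 66.6%, 46.4%, 78.6%, 48.5% and 48.6% of the gene value. XM_039107339.1 of Ypel3 ran from 4.29% to 80% over strains and was at 9.74% and 67.4% in the SHR libraries, and XM_039111405.1 of Dcaf12 ran from 25.1% to 89.4% and was at 91.9% and 23.3%. In Ankrd6 the SHR libraries held 43.4% and 7.83%, whereas in Celsr1 they held 18.8% and 21.1%, in Zbtb22 34.7% and 47.4% and in Tet3 77.4% and 65.2%. None of these 6 genes was called between the families.

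**Figure D5:**
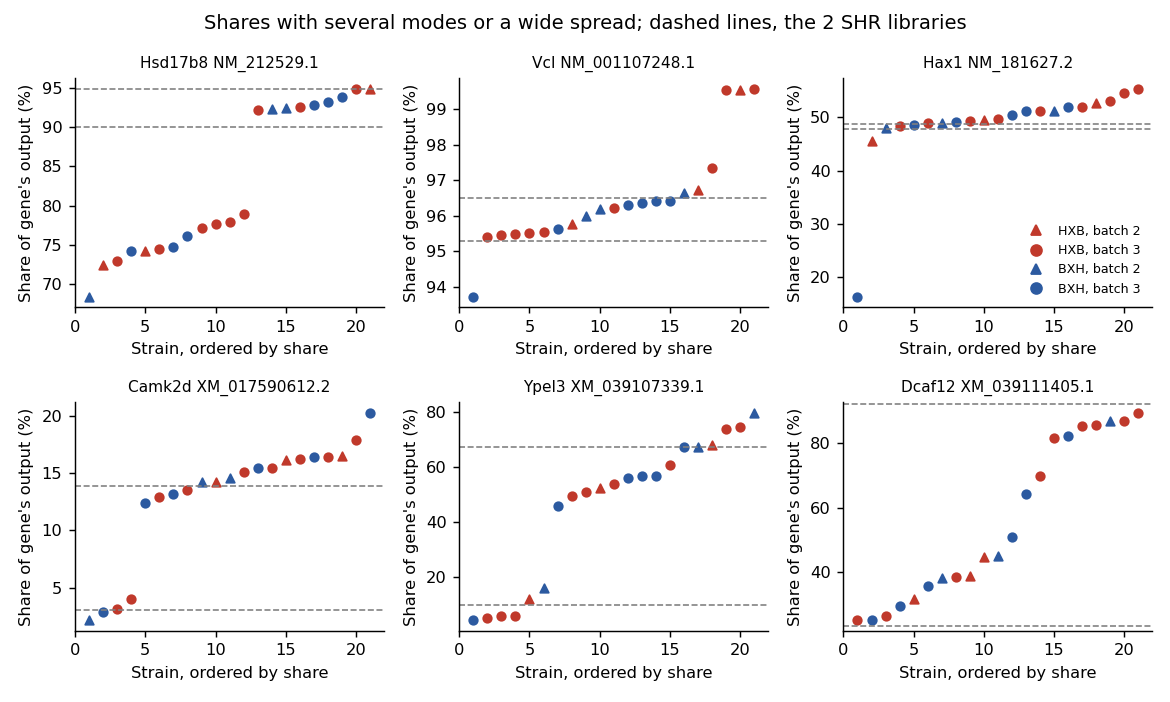
Share of the gene's output (%) of 1 transcript in each of 6 genes, with the 21 strains in order of their share (HXB red, BXH blue, triangles batch 2, circles batch 3) and the 2 SHR libraries as dashed lines. Hsd17b8 has 2 sets of strains with both SHR libraries near the upper one, whereas in Camk2d, Ypel3 and Dcaf12 the SHR libraries lie far apart.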

How the data were processed

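Ribosomal RNA-depleted total RNA of the left ventricle was sequenced. The submitters' processing notes list RSEM 1.3.1, StringTie 1.3.5, cutadapt 1.9.1, HISAT2 2.1.0, Bowtie2 2.3.4.3 and DESeq2 beside the build rn7, with no roles. The RefSeq tables deposited by the authors hold log2 values, with library medians of 6.24 to 6.43 in the transcript table. The transformation is not given in the sources used here and no counts are held, which leaves depth unknown and allows no interval for counting error.

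Transcripts were matched to genes by accession in RefSeq's gene table of GRCr8, used for names only. Of 39547 transcripts 28504 (72.1%) matched, and the 11043 others held 17.2% of the unlogged value. For 2298 of 4647 tested genes (49.5%) the matched transcripts add up to the deposited gene value within 0.1 log2. In the others, which include genes named in the text, a share can cover only a part of the gene. Of 15102 transcripts 12 with a constant share were left out. In 2057 genes with exactly 2 transcripts the shares mirror each other. Gene positions are the outer limits of assembled genes of that name in the deposited rn7 annotation.

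The log2 odds of each share were fitted in limma 3.58.1 (R 4.3.3) with an intensity trend, family and batch, two-sided, with Benjamini-Hochberg adjustment over all transcripts. Differences in percentage points come from the same fit to shares in percent. Modes were fitted with mclust 6.1.1. Library measures used exact permutation within batches (100100 arrangements). Scores along the SHR difference are regression coefficients of batch-centred log2 odds on the difference between 2 SHR libraries. Their column suffixes could not be tied to a batch. Alternatives were other scales, filters, denominators, covariates, batches and left-out strains, and those with the spike-in level, the first component or complete genes were chosen after seeing the data. Python 3.11.15, numpy 2.4.6, pandas 2.3.3 and matplotlib 3.10.9 were used, and the fits were tested on simulated data. The labels do not say more on the animals, so p-values measure the spread between these libraries.

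The members and lists were chosen with earlier results of these data known. Named were the 12 genes with the smallest p, the 8 largest called differences, called list members, the smallest p of each list, the 6 largest SDs, Y-linked genes, Cd36 and Echdc2, with 1 transcript per gene. The text gives a selection. One gene is not reported here and is left out of the list counts.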

Additional observations from a re-analysis of the deposited data

Results flagged for a closer look

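In 87 measures of the 9 BXH strains, 7 shares had a strain farther from its nearest neighbour, relative to the range of the group, than Dixon's critical value. Chance flags about 1 in 20 groups that were not chosen by their values. The flagged shares were named for their values in these data, Hax1 and Vcl for their gain from a second mode. That rate therefore cannot be used to judge the 7 shares. BXH12 was low in Niban1 XM_039091055.1, at 47.8% with the next strain at 52.0%, and high in Igf1 NM_001082479.1, at 32.3% with the next at 26.2%. BXH8 was high in Setdb1 XM_006232913.3, at 14.6% against 9.78%. BXH10 was low in Myh6 XM_039093219.1, at 67.1% against 73.2%. BXH6 was low in Lmo7 NM_001001515.1, at 38.3% against 42.9%, and BXH9 in Vcl NM_001107248.1, at 93.7% against 95.6%. BXH13 was low in Hax1 NM_181627.2, at 16.4% against 47.9%.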

How the results depend on the processing

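The counts of 978 transcripts and 648 genes stayed within 1.5 times under other scales, filters, denominators and limma settings, without the batch covariate and within batch 3 (653 to 1329 transcripts), except for 422 genes at the gene filter of 10 log2. That filter left 304 transcripts of at least 5 points, and diffSplice left 314 and shared 417 calls with the 978. Within batch 2 there was 1 transcript of 1 gene, 1 of at least 5 points, and the SHR score left 23 transcripts of 20 genes, 19 of at least 5 points. Chosen after seeing the data, the spike-in covariate left 1 transcript of 1 gene (0 of at least 5 points, 971 at an unadjusted p under 0.05), and the first component left 0 transcripts of 0 genes (0 of at least 5 points, 1266 unadjusted in limma). That component was computed from the same shares and differed between the families, so a loss of calls was partly built in. Only genes that add up to the gene value gave 571 transcripts of 345 genes, 250 of at least 5 points, where fewer transcripts (6293) were tested. Genes called at the gene level numbered 6940, with 4118 under the SHR score, 0 under the spike-in covariate (2113 at an unadjusted p under 0.05) and 0 within batch 2 (1561 unadjusted).

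Leaving out 1 strain at a time gave 443 to 1268 transcripts, 315 to 818 genes and 291 to 645 transcripts of at least 5 points. The transcript count fell by over 1.5 times without BXH10 (619), BXH11 (640), BXH12 (443), BXH8 (566), BXH9 (445), HXB13 (619), HXB17 (635), HXB20 (623) or HXB31 (585). Of 64 named transcripts that were called, 38 were called whichever strain was left out. All 64 missed the threshold within batch 2, 63 with the spike-in covariate and 53 with the SHR score.

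Differences that changed sign, none of them past the threshold where they did, were Kdm5d (0.080 with a pseudocount of 16, 0.79 within batch 2, 0.23 with the spike-in covariate, 0.11 with the first component), Ppara (-0.039) and Ddx3y (0.33, where the gene value does not match) with the deposited gene value as denominator, and Atg7 (-0.022 within batch 2, -0.15 with the first component). The difference in the median leading share was 0.277 points with the gene filter of 10. The cause was not tested. No paired analysis was possible because every HXB and BXH library is labelled as replicate 1, so the families share fewer than 2 numbers. Unknown depth and unmatched transcripts limit the shares.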
